A study of Mus musculus with 6 samples.

Results

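The 9 genes described here, Fdft1, Sqle, Lss, Cyp51, Msmo1, Nsdhl, Hsd17b7, Sc5d and Dhcr7, encode enzymes that carry farnesyl pyrophosphate (FPP) through squalene to cholesterol. They were found by gene symbol among the 35395 genes read from the deposited expression table, and all 9 were present. Expression was measured by RNA sequencing in mouse bone marrow-derived macrophages (BMDMs), which are macrophages grown from the femoral marrow of C57BL/6 mice with macrophage colony-stimulating factor. One group of 3 libraries came from cells without treatment (Ctrl), and the other group of 3 came from cells 12 h after stimulation with zoledronic acid (ZA), a nitrogen-containing bisphosphonate used against bone resorption. The sources used here give no time point for the Ctrl libraries. No genotype other than C57BL/6 is given for either group. The wild-type mice obtained for the study were young females, but the sources used here do not tie them to the marrow donors. The ZA concentration of these libraries and whether each came from a separate animal or culture are not given in those sources, so the p-values below measure only the spread between these libraries, which may be technical.

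Cholesterol is built from acetyl-CoA. The mevalonate pathway makes FPP, at which the route divides between protein prenylation and sterol synthesis, and ZA is known to inhibit farnesyl pyrophosphate synthase, the enzyme that makes FPP. Squalene synthase commits FPP to sterols, squalene is then oxidized and folded into lanosterol, and lanosterol loses methyl groups and has its double bonds rearranged until cholesterol is formed. The genes of this route are known targets of SREBP-2, a transcription factor of the endoplasmic reticulum membrane that is released for processing when membrane cholesterol is low. In macrophages, which take up lipoproteins and cell debris, synthesis runs beside uptake, storage and efflux of cholesterol.

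Library totals, recovered from the deposited values, were between 41230600 and 42155808 fragments, and the 9 enzymes had from 343 fragments (the lowest library of Hsd17b7) to 5193 fragments (the highest library of Msmo1). Values are in FPKM, fragments per kilobase of gene length, scaled to the library's total. All 9 macrophage markers examined, among them Adgre1, Csf1r and Lyz2, were at 1 FPKM or more in every library, with a summed level of 23705 to 27622 FPKM in Ctrl and 24603 to 28105 FPKM in ZA. The summed level of the 9 neutrophil and progenitor markers was 34.6 to 49.7 FPKM in Ctrl and 30.8 to 35.9 FPKM in ZA, with Ly6g at 0 in all libraries. That of the 6 osteoclast markers was 184 to 203 FPKM in Ctrl and 161 to 185 FPKM in ZA, most of it from Atp6v0d2, and that of the 6 stromal markers 18.9 to 33.8 FPKM in Ctrl and 16.9 to 24.2 FPKM in ZA. The 6 dendritic cell, 6 lymphocyte, 4 erythroid and 4 endothelial markers each summed to under 7 FPKM in every library, and the 4 adipocyte markers to 213 to 243 FPKM, nearly all of it Fabp4, with Plin1 and Lep at 0. For each of these lists the ranges of the summed levels overlapped between the groups. Most of the macrophage sum came from Lyz2, so the sum says little about the other markers. Adgre1 had a mean of 532 FPKM in Ctrl and 581 FPKM in ZA. Every ZA library of Adgre1 lay above every Ctrl library, as in 11.4% of all genes tested. The other macrophage markers are not described singly here. In bulk libraries fewer cells of a type and less RNA per cell cannot be told apart, and the part of other cells in the results below was not tested.

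Msmo1 was the most abundant of the 9 transcripts in both groups, and Fdft1 and Hsd17b7 were the least abundant. In Ctrl the mean level was 43.2 ± 1.46 FPKM for Msmo1 (SD, n = 3 for this and every mean below), 15.58 ± 0.9004 FPKM for Sqle, 14.3 ± 0.371 FPKM for Cyp51 and 12.4 ± 0.368 FPKM for Sc5d. Dhcr7 followed at 11.8 ± 0.386 FPKM, Nsdhl at 9.95 ± 0.965 FPKM and Lss at 4.28 ± 0.0957 FPKM. Fdft1 stood at 1.97 ± 0.0300 FPKM and Hsd17b7 at 1.49 ± 0.0348 FPKM. Of neighbours in this order, Sc5d and Dhcr7 had overlapping libraries in Ctrl. In ZA the order was the same, and the pairs that overlapped were Sqle with Cyp51 and Dhcr7 with Nsdhl. These levels, unlike comparisons of a gene between libraries, depend on the gene lengths used for the FPKM. The length behind the value of Fdft1 was 10420 bases, while the merged exons of Fdft1 span 4227 bases in the GENCODE M21 annotation, and the length behind Msmo1 was 2328 bases against 6144 bases of merged exons.

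Every one of the 9 enzymes had a higher mean in ZA-treated BMDMs, and for all 9 each ZA library lay above each Ctrl library. The mean FPKM in ZA exceeded that in Ctrl by 32.02% for Sqle, the largest difference, and by 6.66% for Dhcr7, the smallest, with a median of 24.6% over the 9 enzymes. The summed level of the 9 enzymes was 112.92, 115.78 and 116.18 FPKM in the Ctrl libraries and 137.08, 141.65 and 142.06 FPKM in the ZA libraries, that is 22.0% higher. Among all 9791 genes tested, 11.4% had every ZA library above every Ctrl library. Of the 9 enzymes, 4 (Sqle, Lss, Cyp51 and Msmo1) rose with an adjusted p under 0.05 (limma on log2(FPKM + 1), Benjamini-Hochberg adjustment over all genes tested, two-sided), where 0.204% of all genes did. At an unadjusted p under 0.05 all 9 enzymes were higher, against 7.5% of all genes, and 8 of 9 were after median centring, after quantile normalization, or without Ctrl replicate 1, Ctrl replicate 3, ZA replicate 2 or ZA replicate 3, with Dhcr7 as the one lost.

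**Figure D1:**
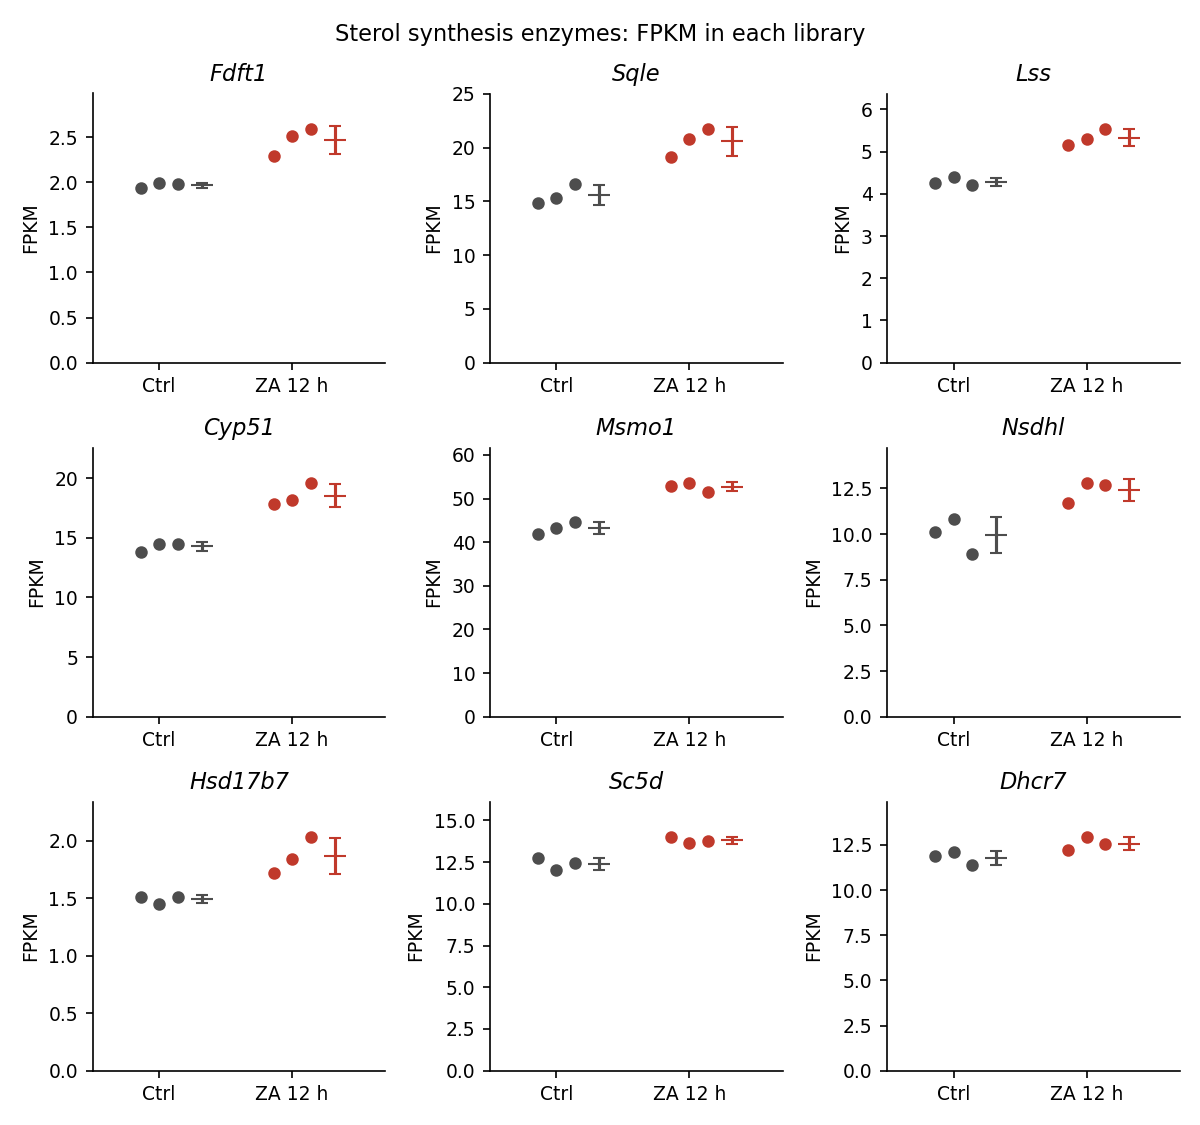
FPKM of each of the 9 enzymes (vertical axes, from 0) in the 3 Ctrl libraries (grey points) and the 3 ZA libraries (red points), placed left to right by replicate number, with the mean and SD beside them. In every panel the lowest red point lies above the highest grey point, with the narrowest gap for Dhcr7.

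Across all genes tested the median log2 fold change was 0.01 with an SD of 0.08, and 20 genes rose and 16 fell with an adjusted p under 0.05. With the libraries centred on their medians the calls were 10 higher and 18 lower. The median log2 fold change of the 9 enzymes was 0.26, and 8 of the 9 were above the 95th percentile of all genes, which was 0.13. Ranked by the moderated statistic from the most increased gene downward, Msmo1 was at place 3, Cyp51 at place 5, Sqle at place 11 and Lss at place 20 of 9791. Nsdhl was at place 87, Fdft1 at 88, Sc5d at 95, Hsd17b7 at 171 and Dhcr7 at 677. The number of enzymes with an adjusted p under 0.05 fell to 0 with no filter on low values, with a variance prior that has no trend, or without Ctrl replicate 1, Ctrl replicate 2, ZA replicate 2 or ZA replicate 3, to 1 (Msmo1) without Ctrl replicate 3, to 3 (Sqle, Cyp51 and Msmo1) without ZA replicate 1, and to 2 (Cyp51 and Msmo1) after median centring or quantile normalization. In all of these the log2 fold change of each of the 9 enzymes stayed above 0.

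**Figure D2:**
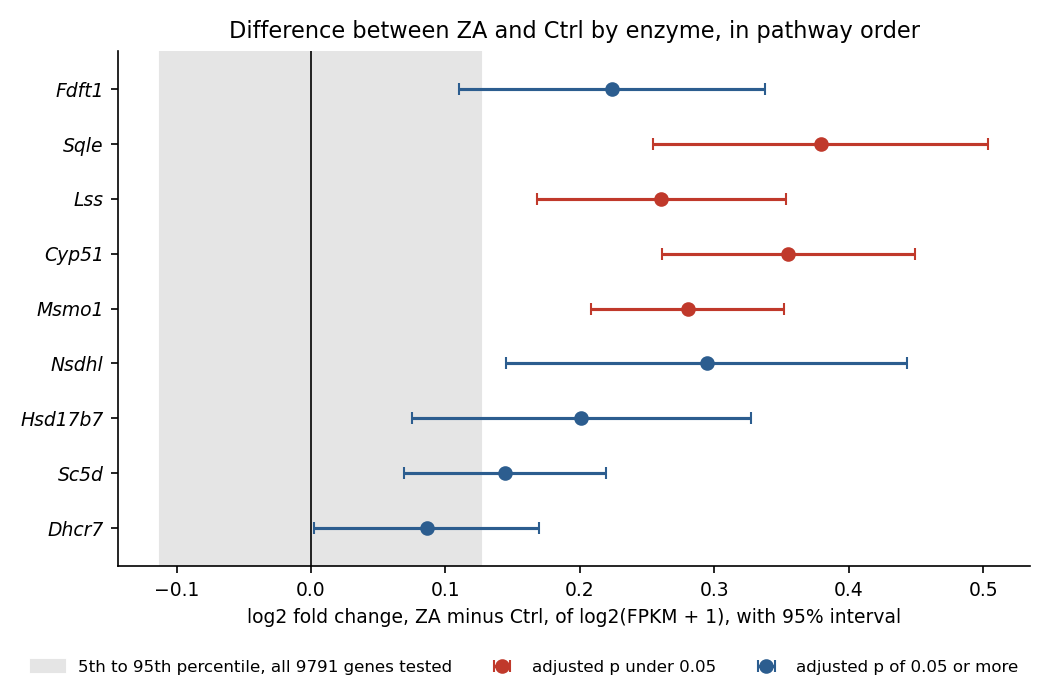
Log2 fold change of the 9 enzymes on the log2(FPKM + 1) scale, ZA minus Ctrl (horizontal axis), with 95% intervals, from the first enzyme of the route at the top to the last at the bottom. Red points have an adjusted p under 0.05 and blue points do not, and the grey band spans the 5th to the 95th percentile of all 9791 genes tested, -0.11 to 0.13. The estimate of Dhcr7 alone lies inside the band.

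The first steps make lanosterol. Fdft1, squalene synthase, joins FPP molecules to squalene. Fdft1 was at 1.93, 1.99 and 1.98 FPKM in Ctrl and 2.29, 2.51 and 2.60 FPKM in ZA. All ZA values were above all Ctrl values, the mean was 25.4% higher, and the log2 fold change was 0.22 (SE, the standard error, 0.05, adjusted p = 0.113), which did not pass the threshold. Because a pseudocount of 1 is large beside such low values, this log2 fold change is smaller than the log2 ratio of the mean FPKM, 0.33. Sqle, squalene epoxidase, adds the oxygen to squalene and is a known control point of the route. Sqle was at 14.8, 15.3 and 16.6 FPKM in Ctrl and 19.2, 20.8 and 21.8 FPKM in ZA. The lowest ZA library was 2.56 FPKM above the highest Ctrl library. The log2 fold change was 0.38 (limma, SE 0.05, adjusted p = 0.0487), the largest of the 9 enzymes. Lss, lanosterol synthase, closes the epoxide into the first sterol. Lss was at 4.25, 4.39 and 4.21 FPKM in Ctrl and 5.16, 5.29 and 5.55 FPKM in ZA. The groups were apart by 0.766 FPKM, and the log2 fold change was 0.26 (limma, SE 0.04, adjusted p = 0.0490).

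The next enzymes remove methyl groups from lanosterol. Cyp51, the cytochrome P450 that takes off the methyl group at carbon 14, is the target that azole drugs inhibit in fungi. The transcript was at 13.8, 14.5 and 14.5 FPKM in Ctrl and 17.8, 18.2 and 19.6 FPKM in ZA. The lowest ZA library was 3.35 FPKM above the highest Ctrl library, and the log2 fold change was 0.35 (limma, SE 0.04, adjusted p = 0.0305). Msmo1, the methylsterol monooxygenase that begins removal of the methyl groups at carbon 4, was at 41.8, 43.2 and 44.7 FPKM in Ctrl and at 52.9, 53.6 and 51.5 FPKM in ZA. Its groups were apart by 6.82 FPKM, the widest gap in FPKM of the 9, and the log2 fold change was 0.28 (limma, SE 0.03, adjusted p = 0.0305). Nsdhl, the dehydrogenase and decarboxylase of the same step, is encoded on the X chromosome. Nsdhl was at 10.1, 10.8 and 8.92 FPKM in Ctrl and 11.7, 12.8 and 12.7 FPKM in ZA. The mean was 24.6% higher, but the Ctrl libraries varied by 9.69% (coefficient of variation), the widest spread of the 9 in Ctrl and larger than the 3.30% that counting alone gives. The log2 fold change of Nsdhl was 0.29 (limma, SE 0.07, adjusted p = 0.113). Hsd17b7, the ketoreductase that completes the step, was at 1.51, 1.45 and 1.51 FPKM in Ctrl and at 1.72, 1.84 and 2.04 FPKM in ZA. Its mean was 25.2% higher, with a log2 fold change of 0.20 (limma, SE 0.05, adjusted p = 0.204), and a log2 ratio of the mean FPKM of 0.32.

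The last enzymes set the double bonds of the ring. Sc5d, the lathosterol desaturase that introduces a double bond at carbon 5, was at 12.74, 12.01 and 12.44 FPKM in Ctrl and at 14.03, 13.64 and 13.75 FPKM in ZA. The groups did not overlap and the mean was 11.4% higher, with a log2 fold change of 0.14 (limma, SE 0.03, adjusted p = 0.122). Dhcr7, the reductase that turns 7-dehydrocholesterol into cholesterol and is deficient in Smith-Lemli-Opitz syndrome, was at 11.9, 12.1 and 11.4 FPKM in Ctrl and at 12.24, 12.96 and 12.53 FPKM in ZA. The gap between the groups was 0.120 FPKM, and after quantile normalization the groups of Dhcr7 overlapped while those of the other 8 enzymes did not. The log2 fold change of Dhcr7 was 0.09 (95% interval 0.00235 to 0.170, adjusted p = 0.394). Within each library the FPKM ratio of Sqle to Dhcr7 was 1.25, 1.26 and 1.46 in the Ctrl libraries, against 1.57, 1.61 and 1.74 in the ZA libraries. That of Cyp51 to Dhcr7 was 1.16, 1.20 and 1.27 in the Ctrl libraries, against 1.46, 1.40 and 1.57 in the ZA libraries. These pairs were picked after the values were seen, from enzymes with the largest and the smallest log2 fold changes, so that the ratios are a description of unequal differences and were not tested. The ratio of Msmo1 to Nsdhl, also picked afterwards, overlapped between the groups, with 4.13, 3.99 and 5.01 in Ctrl and 4.52, 4.19 and 4.06 in ZA.

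Promoter sequences of the 9 enzymes were taken from RefSeq (GRCm38.p6, 250 bases before to 50 bases after a start site), from a table in which 7 of the 9 symbols, other than Fdft1 and Sqle, were matched, with 9 promoters in all because Dhcr7 has 3. The sequences below are those of Lss, Cyp51 and Msmo1, which rose, and of Dhcr7, with the smallest difference. Of the 3 Dhcr7 promoters, the one shown was picked because it holds CCAAT, and the other two hold 0 matches to it. The capitals mark the letters CCAAT or, on the other strand, ATTGG, the core of the element that the factor NF-Y binds, which is known to act with SREBP at sterol genes. Each is written 5′ to 3′ on the strand of the gene.
Lss, chr10:76531355-76531654, plus strand: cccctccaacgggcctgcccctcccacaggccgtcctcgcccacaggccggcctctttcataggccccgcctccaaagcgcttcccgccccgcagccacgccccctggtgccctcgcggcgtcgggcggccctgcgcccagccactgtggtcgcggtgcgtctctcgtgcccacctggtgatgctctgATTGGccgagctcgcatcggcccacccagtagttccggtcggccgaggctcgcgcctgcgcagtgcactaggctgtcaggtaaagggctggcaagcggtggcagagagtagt
Cyp51, chr5:4104648-4104947, minus strand: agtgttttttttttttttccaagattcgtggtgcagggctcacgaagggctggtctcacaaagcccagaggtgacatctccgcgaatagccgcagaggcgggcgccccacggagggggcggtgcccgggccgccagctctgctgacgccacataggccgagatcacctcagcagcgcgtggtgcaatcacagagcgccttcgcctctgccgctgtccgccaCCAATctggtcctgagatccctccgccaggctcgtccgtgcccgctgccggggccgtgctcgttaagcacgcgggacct
Msmo1, chr8:64733529-64733828, minus strand: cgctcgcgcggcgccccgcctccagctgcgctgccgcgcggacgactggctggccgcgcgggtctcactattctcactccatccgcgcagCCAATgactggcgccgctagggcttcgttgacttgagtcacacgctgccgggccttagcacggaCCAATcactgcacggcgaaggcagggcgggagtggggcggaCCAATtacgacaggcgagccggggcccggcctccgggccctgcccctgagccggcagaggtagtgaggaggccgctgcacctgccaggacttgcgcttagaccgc
Dhcr7, chr7:143829964-143830263, plus strand: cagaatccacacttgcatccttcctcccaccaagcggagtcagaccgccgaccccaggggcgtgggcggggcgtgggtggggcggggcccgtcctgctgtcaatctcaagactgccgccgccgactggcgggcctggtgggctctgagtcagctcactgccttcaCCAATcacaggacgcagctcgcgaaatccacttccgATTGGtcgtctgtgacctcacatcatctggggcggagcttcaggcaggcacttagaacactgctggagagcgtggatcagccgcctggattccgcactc
Lss held 1 match, Cyp51 1, Msmo1 3 and this Dhcr7 promoter 2. At least 1 promoter of each of the 7 enzymes held CCAAT on either strand (7 of 9 promoters), as did 37.4% of the 32851 promoters of the table. The GC box GGGCGG, the letters of the Sp1 element, was in 8 of the 9 promoters on either strand, and in 35.7% of all. The letters TCACNCCAC, a form of the sterol regulatory element, were in 0 of the 9 promoters on either strand and in 1.24% of all. Only exact matches to these letters were counted, and sites that differ from them were not searched. With so rare a match, 0 of 9 does not show that the promoters lack such an element. In the promoter of Msmo1 the 3 CCAAT matches began at -160, -96 and -55 relative to the start site. A match is a description of the letters and not a bound site.

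The genes upstream of FPP and the sterol enzymes outside the 9 were examined as lists. For the counts by direction below, 5575 of all 9791 genes tested had a positive log2 fold change. Of the 9 genes of the mevalonate pathway up to FPP and geranylgeranyl pyrophosphate, 8 had a positive log2 fold change, 2 rose with an adjusted p under 0.05, and the median log2 fold change was 0.25. Fdps, the synthase that ZA is known to inhibit, was at 30.9, 30.2 and 30.4 FPKM in Ctrl and at 37.3, 38.2 and 42.8 FPKM in ZA, with a log2 fold change of 0.36 (limma, SE 0.05, adjusted p = 0.0453). Idi1, the isomerase that makes dimethylallyl pyrophosphate, rose, with a log2 fold change of 0.43 (limma, SE 0.06, adjusted p = 0.0487). Ggps1, which extends FPP to geranylgeranyl pyrophosphate, was singled out after its values were seen. Its levels were 3.284, 3.315 and 3.443 FPKM in Ctrl and 2.863, 3.167 and 3.211 FPKM in ZA. Every ZA library of Ggps1 lay below every Ctrl library, and the share of all genes with this pattern is not given. The log2 fold change of Ggps1 was -0.09 (limma, SE 0.05, adjusted p = 0.480), which did not pass the threshold. Of 4 other genes of the same stretch, 3 had a positive log2 fold change, with a median of 0.12 over the 4. An adjusted p under 0.05 was reached by 0 of the 4 with limma and 0 with voom on the recovered fragments. At an unadjusted p under 0.05, 3 of the 4 had higher values, against 7.5% of all genes tested. Tm7sf2, a reductase of the carbon 14 double bond, had a log2 fold change of 0.24 (SE 0.05, adjusted p = 0.110). Erg28, a scaffold of the enzymes that remove the methyl groups at carbon 4, had one of 0.14 (SE 0.05, adjusted p = 0.304). Ebp, the isomerase between Hsd17b7 and Sc5d in the route, was also singled out after its values were seen, with 29.5, 30.2 and 29.3 FPKM in Ctrl, 29.0, 29.1 and 29.6 FPKM in ZA and a log2 fold change of -0.02 (limma, SE 0.03, adjusted p = 0.790).

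**Figure D3:**
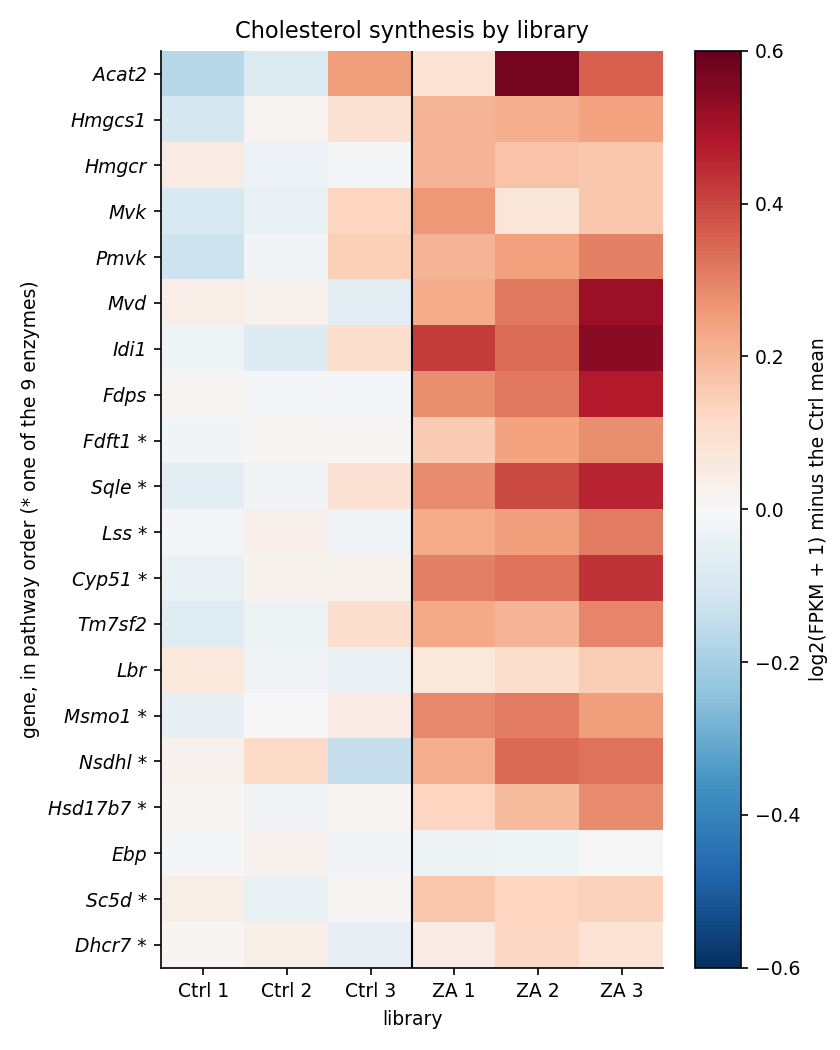
Difference of log2(FPKM + 1) from the Ctrl mean (colour, blue below and red above) in the 6 libraries (columns) for 20 genes of cholesterol synthesis in the order of the route (rows), with the 9 enzymes marked by a star. In 19 of the 20 genes every ZA library lies above the Ctrl mean, and Ebp is the exception. This is looser than groups that do not overlap, and its share over all genes is not given. The libraries of the groups overlap for Acat2, Mvk, Lbr and Ebp.

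The electron donors Por, Cyb5a, Cyb5b and Cyb5r3 serve the oxygenases of the route. Of these 4 genes, 0 had an adjusted p under 0.05 by limma and 0 by voom on the recovered fragments, and 1 had an unadjusted p under 0.05. That gene was Por, the reductase that passes electrons to Cyp51 and Sqle, with lower values in ZA, as 4.85% of all genes tested had at that threshold. Por had 151 ± 3.39 FPKM in Ctrl and 144 ± 1.31 FPKM in ZA and a log2 fold change of -0.06 (limma, SE 0.02, adjusted p = 0.346). Cyb5b, a cytochrome b5, had a log2 fold change of 0.06 (limma, SE 0.04, adjusted p = 0.558).

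Of the 7 genes of SREBP control, 4 had a positive log2 fold change and 1 rose. The share with a positive value was near that of all genes, 5575 of 9791. Insig1, which holds the SREBP complex in the endoplasmic reticulum and is itself an SREBP target, was at 37.4, 37.5 and 36.7 FPKM in Ctrl and at 42.7, 43.9 and 43.4 FPKM in ZA (log2 fold change 0.21, SE 0.02, adjusted p = 0.0305). Srebf2, the gene of SREBP-2, had 33.4 ± 0.442 FPKM in Ctrl and 36.0 ± 1.40 FPKM in ZA, with a log2 fold change of 0.11 (limma, SE 0.03, adjusted p = 0.250). Of 5 genes of lipoprotein uptake and sterol transport that were tested, 1 rose and the other 4 did not pass. That gene was Stard4, a carrier of cholesterol between membranes, with 7.44 ± 0.137 FPKM in Ctrl and 8.90 ± 0.268 FPKM in ZA (log2 fold change 0.23, SE 0.04, adjusted p = 0.0490). Mylip, a ubiquitin ligase that LXR induces, had a log2 fold change of -0.12 (limma, SE 0.03, adjusted p = 0.152).

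Among 7 genes of LXR signalling, efflux and storage that were tested, 0 passed an adjusted p under 0.05 by limma and 1 (Abca1, lower) by voom. Ch25h was below the filter. Against 4.85% of all genes tested, 2 of the 7 had lower values at an unadjusted p under 0.05. These were the sterol exporters Abca1, with a log2 fold change of -0.15 (limma, SE 0.04, adjusted p = 0.171), and Abcg1, with one of -0.11 (limma, SE 0.03, adjusted p = 0.204). Of the 8 genes of fatty acid synthesis that were tested, all 8 had a positive log2 fold change and 2 rose, while Elovl6 was below the filter. A positive value was found for 5575 of all 9791 genes. Fasn, fatty acid synthase, had 9.68 ± 0.133 FPKM in Ctrl and 11.7 ± 0.520 FPKM in ZA (log2 fold change 0.25, SE 0.04, adjusted p = 0.0487), and Scd2, a stearoyl-CoA desaturase, had 32.3 ± 0.519 FPKM in Ctrl and 37.3 ± 0.616 FPKM in ZA (log2 fold change 0.20, SE 0.03, adjusted p = 0.0449). The median log2 fold change was 0.23 for fatty acid synthesis, 0.02 for SREBP control, -0.04 for lipoprotein uptake and transport and -0.02 for LXR, efflux and storage. The 9 enzymes had 0.26, and all genes tested 0.01.

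**Figure D4:**
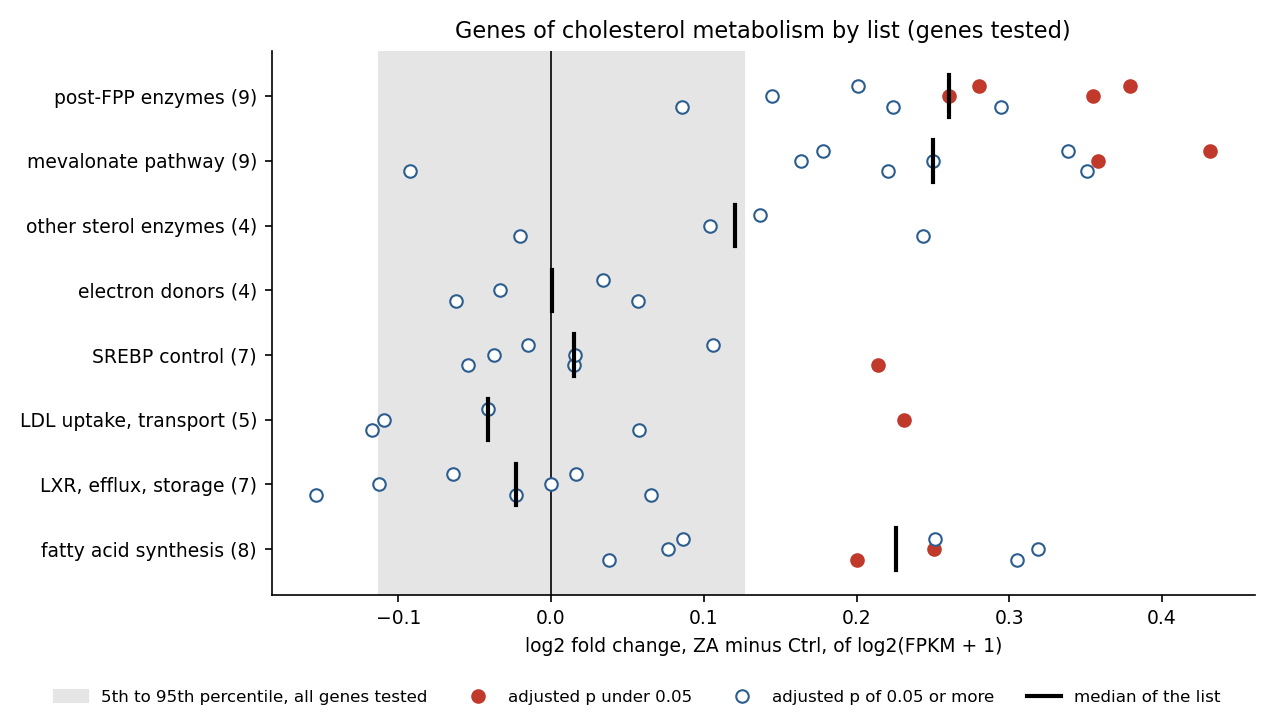
Log2 fold change on the log2(FPKM + 1) scale (horizontal axis) of each tested gene of the 9 enzymes (top row, post-FPP enzymes) and of 7 other lists, with the number of genes in brackets. Filled red points have an adjusted p under 0.05, open points do not, black bars are medians, and the grey band is the 5th to 95th percentile of all genes tested.

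Over the 6 libraries, the 5 genes outside the 9 whose log2(FPKM + 1) was most like the mean standardised level of the 9 enzymes were Rab43, Ttc33, Cept1, Eif3f and Rufy1, with Pearson r of 0.998, 0.997, 0.995, 0.994 and 0.994. In total 256 of 9780 genes had an r of at least 0.9. With 6 points in 2 groups, such values are a description only. The log2 fold changes of these 5 genes were smaller than the median of the 9 enzymes, from 0.07 for Rab43 to 0.16 for Cept1.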

How the data were processed

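The authors extracted total RNA with TRIzol and sequenced paired-end Illumina libraries. The labels name a VAHTS kit and also a SMARTER kit. They deposited FPKM values, fragments scaled by gene length and library total, in one table whose symbols and values run together. The submitters' processing notes name the build mm9. The aligner, counting program and annotation are not given in the sources used here.

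Of 35434 rows, 35395 were restored by the form of the numbers or by the rule that each FPKM is a whole number of fragments over a length and a total, 39 were left out, and the 11 intact rows came out identical. The 9 enzymes each had a single possible reading. Restored rows held 99.6% or more of the fragments. The floor of 3 fragments corresponds to 0.0213 FPKM at the median gene length, and such limits cover counting error only.

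Log2(FPKM + 1) was compared with limma 3.58.1 in R 4.3.3 (lmFit, eBayes with trend, two-sided) in all 6 libraries and for the 9791 genes whose mean FPKM reached 1, and p-values were adjusted by Benjamini-Hochberg, with a threshold of 0.05. Fold changes on this scale understate the change of low genes. The script was checked on simulated data. Tables were handled with Python and pandas, and exon lengths came from GENCODE M21 and promoters from RefSeq (GRCm38.p6), by symbol. The 9 enzymes and all lists were chosen with earlier results of these data known. Named were the 9 enzymes, Fdps, each listed gene with an adjusted p under 0.05, from each list the 2 largest moderated statistics, and the 5 genes most like the enzymes. Some of the genes that this rule or the lists would name are not reported here, and counts over the lists leave them out. Alternatives were a pseudocount of 0.1, no filter or a mean FPKM of 5, other scalings, no trend, a replicate block, limma's voom on the recovered fragments, and leaving out each library.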

Additional observations from a re-analysis of the deposited data

How the results depend on the processing

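All 9 enzymes had a positive log2 fold change under each of 14 alternatives, except that with a mean FPKM of at least 5 the 6 enzymes left were positive and Fdft1, Lss and Hsd17b7 were not tested. The number of genes called (36) moved to 1 with no filter, 20 with quantile normalization, 1 without a trend and 132 with voom. The number of enzymes called (4) moved to 0 with no filter, 2 after median centring, 2 after quantile normalization, 0 without a trend and 6 with voom on recovered fragments, which added Fdft1 and Nsdhl, and it stood at 3 with a mean FPKM of at least 5. The median log2 fold change of the enzymes (0.26) moved to 0.31 with a pseudocount of 0.1 and 0.32 with voom. Of the other listed genes, 6 were called, against 0 with no filter, 3 after median centring, 3 after quantile normalization, 0 without a trend and 11 with voom, a set of alternatives added after the data were seen. Leaving out 1 library gave 0 to 25 genes, 0 to 3 enzymes, 0 to 2 other listed genes and medians of 0.23 to 0.28. The cause of these moves was not tested.

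The groups share replicate numbers. Deviations from the group means correlated between same-numbered libraries with r of 0.284, 0.0395 and 0.280, so not every pair passed 0.1. Each library correlated best with its own number, as a hint from the data. The sources used here name no pairing beyond the number, and whether same-numbered libraries share a culture is not known. A replicate block gave 78 called genes (41 higher, 37 lower) and 3 called enzymes (Sqle, Cyp51 and Msmo1), with Lss at an adjusted p of 0.0542 by limma. Hsd17b7 had as few as 343 fragments in a library, where counting alone gives a coefficient of variation of 5.32% in Ctrl.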
